A study of Homo sapiens with 28 samples.

Results

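The microRNAs miR-380-3p and miR-485-3p, from the same imprinted cluster on human chromosome 14, were set directly against each other in Kelly cells. Kelly is an established neuroblastoma cell line with an amplified MYCN gene, so all libraries share 1 genetic background. The comparison used the 4 libraries of cells given a miR-380-3p mimic and the 4 libraries of cells given a miR-485-3p mimic, 8 of the 28 libraries of the series, chosen by their labels alone. The 4 libraries of cells given the Scrambled control served to place each gene relative to a transfected baseline. Every group received 25 nM of its synthetic RNA by reverse transfection and was harvested at 48 h. The mimic is a supplied duplex, so the values describe cells with added microRNA, and the level of the mature microRNAs was not measured in these libraries of poly(A)-selected mRNA. Nothing in the labels says whether replicate libraries stem from separate cultures, so the p-values measure a spread that may be technical.

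A microRNA guides an Argonaute protein to messenger RNAs that pair with its seed, bases 2 to 8 counted from its 5′ end, usually in the 3′ untranslated region (UTR), and the bound message is repressed and often degraded. The 14q32 cluster, in the DLK1-DIO3 imprinted region, is transcribed from the maternal chromosome together with the long RNA MEG3, while DLK1, RTL1 and DIO3 are expressed from the paternal one. Because the seed sets most of the pairing, microRNAs from 1 transcript can have largely separate targets.

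The mature sequences, from the RefSeq table for GRCh38.p14, are shown with the seed in capitals because the comparison turns on how little the seeds share. Both are 22 nucleotides long, lie on the plus strand of chromosome 14, at chr14:101025056-101025077 for miR-380-3p and chr14:101055464-101055485 for miR-485-3p, and are 30386 bases apart. Their seeds have the same base at 2 of 7 positions, and no run that they share is longer than 2 bases.
miR-380-3p: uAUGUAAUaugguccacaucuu
miR-485-3p: gUCAUACAcggcucuccucucu

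A message that pairs with the whole seed carries the heptamer ATTACAT for miR-380-3p or TGTATGA for miR-485-3p. The sites of 9 genes that the results below turn on follow, read from the longest annotated 3′ UTR of each gene (GENCODE v29, GRCh38), with 14 bases before the heptamer and 2 after it. The heptamer is in capitals, its coordinates are given, and the sequence runs along the message. TGFBR1, IGF2, HIPK3 and PDK1 carry only the miR-380-3p heptamer, MYCBP, ALDH18A1 and TSPAN3 only that of miR-485-3p, and NRAS and TMEM30A both.
TGFBR1 site 1 for miR-380-3p, chr9:99149913-99149919, plus strand: cacttattcagaacATTACATgc
TGFBR1 site 2 for miR-380-3p, chr9:99150429-99150435, plus strand: tttttaagacatgaATTACATtt
TGFBR1 site 3 for miR-380-3p, chr9:99151166-99151172, plus strand: agaatgagtgacatATTACATag
TGFBR1 site 4 for miR-380-3p, chr9:99153634-99153640, plus strand: agcagtgcaaataaATTACATtt
IGF2 site for miR-380-3p, chr11:2130678-2130684, minus strand: agcagacttgcagaATTACATag
HIPK3 site 1 for miR-380-3p, chr11:33354792-33354798, plus strand: cgtcagggacagaaATTACATgc
HIPK3 site 2 for miR-380-3p, chr11:33355178-33355184, plus strand: tctgtataagtctaATTACATga
PDK1 site for miR-380-3p, chr2:172598392-172598398, plus strand: gtaatggacagaatATTACATac
MYCBP site for miR-485-3p, chr1:38864626-38864632, minus strand: atgaaaaatggtttTGTATGAct
ALDH18A1 site for miR-485-3p, chr10:95606046-95606052, minus strand: atgcttgaaattttTGTATGAat
TSPAN3 site for miR-485-3p, chr15:77046161-77046167, minus strand: tgtgagtgtgttttTGTATGAat
NRAS site 1 for miR-380-3p, chr1:114706960-114706966, minus strand: tagtatattaacaaATTACATtt
NRAS site 2 for miR-380-3p, chr1:114705443-114705449, minus strand: gccagctgtcataaATTACATat
NRAS site 1 for miR-485-3p, chr1:114707283-114707289, minus strand: tgccattttgtacaTGTATGAaa
NRAS site 2 for miR-485-3p, chr1:114704740-114704746, minus strand: acctaagatggaatTGTATGAac
TMEM30A site for miR-380-3p, chr6:75254758-75254764, minus strand: tcagaggtggcttaATTACATtg
TMEM30A site 1 for miR-485-3p, chr6:75255698-75255704, minus strand: aagggattacaagaTGTATGAgt
TMEM30A site 2 for miR-485-3p, chr6:75253178-75253184, minus strand: tgccttagaattatTGTATGAca

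Library totals were 11.5 M to 17.7 M expected counts under miR-380-3p, 10.99 M to 16.7 M under miR-485-3p and 13.0 M to 15.2 M in the control. The 13 mitochondrially encoded mRNAs took 9.73% ± 1.87 of the counts under miR-380-3p, 7.15% ± 1.43 under miR-485-3p and 8.12% ± 0.470 in the control (SD, n = 4 each). The mimic groups did not differ beyond their spread in this share (two-sided exact permutation test p = 0.114, smallest possible 0.0286). A GC slope, the change in log2 level per unit of transcript GC content, was -1.11 to 1.51 under miR-380-3p, -0.895 to 3.04 under miR-485-3p and -0.276 to 1.33 in the control, and miR-485-3p replicate 2 stood highest at 3.04. The adrenergic neuroblastoma markers were present: HAND2, GATA3, TH, DBH, CHGA, PHOX2A and MYCN all had at least 93.8 CPM (counts scaled to a fixed library total) in each of the 12 libraries. Of 19 markers of endothelial, fibroblast, epithelial, Schwann and blood cells, 17 were in the table and 6 had no count in any library of a given group. PECAM1, DCN, KRT18, S100B and SOX10 were at 0 in all 12, and the summed level of the markers was 65.5 to 75.7 CPM under miR-380-3p, 72.5 to 77.3 under miR-485-3p and 85.1 to 94.5 in the control, most of it PDGFRB.

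The mimics gave widely different messenger RNA profiles. Of 15058 genes tested, 4367 (29%) were called different between them at an adjusted p under 0.05 (edgeR's quasi-likelihood test, Benjamini-Hochberg adjustment). Of these, 2200 (14.6%) were higher and 2167 (14.4%) lower under miR-380-3p than under miR-485-3p, and 548 differed at least 2-fold, 400 of them higher and 148 lower under miR-380-3p. The median log2 difference over all genes was -0.02. In 3311 genes (22%) the 4 libraries of one mimic did not overlap the 4 of the other, 1786 (11.9%) higher and 1525 (10.1%) lower under miR-380-3p. Against the control, miR-380-3p changed 1634 genes (10.9%), 843 (5.6%) higher and 791 (5.25%) lower, and miR-485-3p changed 3176 (21.1%), 1574 (10.5%) higher and 1602 (10.6%) lower. These last 2 comparisons share their control libraries, so their values are given side by side and are not counted as independent. Fitted on the 8 mimic libraries alone, the direct comparison called 2571 genes.

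Genes that carried the heptamer of one microRNA tended to be the lower ones under that microRNA. Among 12664 tested genes with a 3′ UTR of at least 50 bases, 1407 held only the miR-380-3p heptamer, and 26.6% of them were called lower under miR-380-3p than under miR-485-3p, against 16.2% of the 9323 genes with neither heptamer. The 1359 genes with only the miR-485-3p heptamer were called higher under miR-380-3p in 36.8% of cases, against 12.3% of genes with neither. In the opposite direction, of genes with only the miR-380-3p heptamer 11.0% were called higher, and of those with only the miR-485-3p heptamer 7.43% were called lower. Median log2 differences were -0.10 with only the miR-380-3p heptamer, 0.19 with only that of miR-485-3p, 0.04 in the 575 genes with both and -0.06 with neither, against -0.04 over all 12664. These shares are a description, since genes are not replicates.

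**Figure D1:**
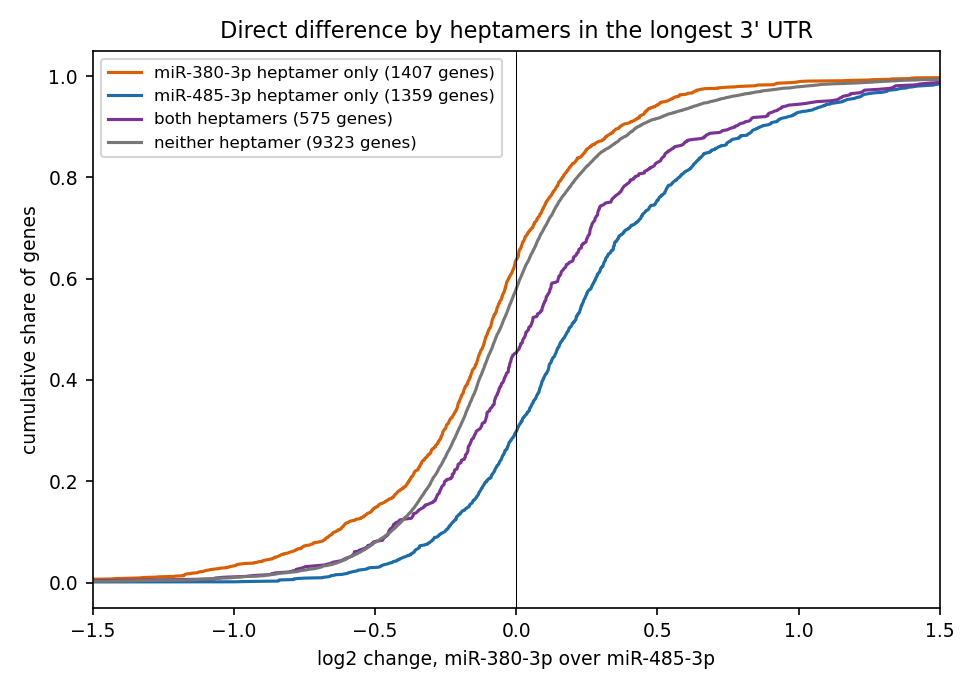
Cumulative share of genes (vertical axis) by log2 difference of miR-380-3p over miR-485-3p (horizontal axis), for the 4 classes of heptamer content of the 3′ UTR. The curve of the 1407 genes with only the miR-380-3p heptamer (median -0.10) lies to the left of that of the 9323 genes with neither (median -0.06), and the curve of the 1359 genes with only the miR-485-3p heptamer (median 0.19) lies to the right.

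Against the control, the shares called lower differed by class under each mimic. Of genes with only the miR-380-3p heptamer, 14.7% were called lower under miR-380-3p and 8.32% under miR-485-3p. Of genes with only the miR-485-3p heptamer, 3.46% were called lower under miR-380-3p and 27.9% under miR-485-3p. Genes with both were lower in 11.8% of cases under miR-380-3p and in 23.5% under miR-485-3p, and genes with neither in 4.22% and 8.10%, in that order.

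Shares also went with the number and context of the heptamers. With only the miR-380-3p heptamer, 24.7% of 1132 genes with 1 copy, 32.3% of 220 with 2 and 41.8% of 55 with at least 3 were called lower under miR-380-3p. A heptamer followed by A, the base that Argonaute prefers opposite the first microRNA base, marked 413 of these genes, of which 38.7% were lower, against 21.5% of the 994 whose heptamers were not. With only the miR-485-3p heptamer, 35.1% of 1161 genes with 1 copy, 47.3% of 165 with 2 and 42.4% of 33 with at least 3 were called higher under miR-380-3p. There the share was 46.4% of 563 genes with a following A and 30.0% of 796 without.

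**Figure D2:**
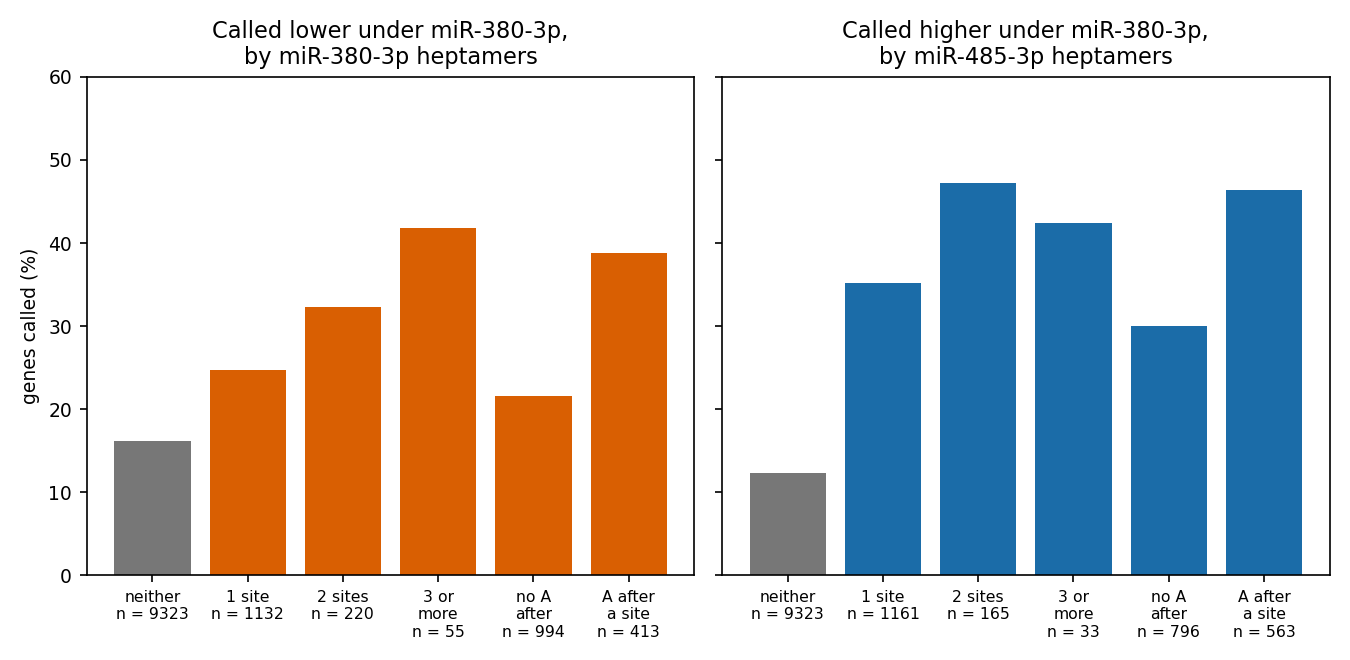
Percent of genes called in the direction of their heptamer (vertical axis, from 0) for genes with neither heptamer and for genes with only 1 kind of heptamer, by copy number and by a following A. The left panel gives genes lower under miR-380-3p by miR-380-3p heptamers, reaching 41.8% at 3 or more copies, and the right panel gives genes higher under miR-380-3p by miR-485-3p heptamers, reaching 47.3% at 2 copies.

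The classes differ in more than their heptamers. Their median UTR was 3076 bases with only the miR-380-3p heptamer, 2766 with only that of miR-485-3p, 4771 with both and 1325 with neither, and their median transcript GC content was 41.7%, 44.4%, 40.1% and 51.5% in the same order. Genes were also divided by UTR length into 4 groups of nearly equal size. Within the group with the shortest UTRs, 33.8% of 77 genes with only the miR-380-3p heptamer were called lower under miR-380-3p, against 13.8% of genes with neither. In that group 44.7% of 85 genes with only the miR-485-3p heptamer were called higher, against 9.16% with neither. In the group with the longest UTRs the corresponding shares were 24.4% of 698 genes against 17.5%, and 34.3% of 606 genes against 15.4%.

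The heptamers were also counted by the size of the difference, over the genes with an annotated UTR only. Of 122 such genes called at least 2-fold lower under miR-380-3p, 40.2% carried its heptamer and 4.10% that of miR-485-3p. Of 319 such genes called at least 2-fold higher, 14.1% carried the miR-380-3p heptamer and 40.1% that of miR-485-3p. Among the 8649 genes not called, the shares were 14.1% and 12.8%.

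IGF2, TGFBR1, HIPK3 and PDK1, each with only the miR-380-3p heptamer, were lower under miR-380-3p than under miR-485-3p. IGF2, insulin-like growth factor 2, a growth factor imprinted like the microRNAs themselves, had 1396, 1739, 1062 and 1161 CPM under miR-380-3p, against 4674, 5485, 3243 and 4351 under miR-485-3p, with 4673 to 5359 in the control. The mimic groups did not overlap, and the miR-485-3p libraries spanned the control level. The log2 difference was -1.73 ± 0.17 (SE), with an adjusted p of 1.64e-08. Reads of IGF2 and of genes overlapping it cannot be told apart without the counting rule, which is not given in the sources used here.

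TGFBR1, the type I receptor of the TGF-beta pathway, carries the miR-380-3p heptamer 4 times. It had 14.1, 9.11, 7.48 and 9.38 CPM under miR-380-3p, against 25.6, 22.2, 45.4 and 38.4 under miR-485-3p, and 27.5 to 32.7 in the control. All miR-380-3p libraries were below all others, and among the miR-485-3p libraries replicates 1 and 2, those with the highest GC slopes, were the lower ones. The log2 difference was -1.73 ± 0.18 with an adjusted p of 4.94e-08. Against the control the log2 change was -1.60 ± 0.19 under miR-380-3p (adjusted p = 1.03e-06) and 0.13 ± 0.17 under miR-485-3p (adjusted p = 0.641).

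HIPK3, a homeodomain-interacting protein kinase, had 22.9, 15.3, 14.5 and 13.1 CPM under miR-380-3p, against 61.7, 41.7, 76.9 and 76.4 under miR-485-3p, and 37.8 to 48.6 in the control. The mimics lay on either side of the control, with miR-485-3p replicate 2 inside the control range. The log2 difference was -1.98 ± 0.17 (adjusted p = 1.67e-09). Relative to the control, the fall under miR-380-3p was called (adjusted p = 2.93e-06), and the rise under miR-485-3p was called at an adjusted p of 0.0129 but lost in 3 of 17 settings, among them without miR-485-3p replicate 3 or 5. PDK1, the kinase that shuts off pyruvate dehydrogenase, had 37.9, 29.3, 25.9 and 26.7 CPM under miR-380-3p, against 84.5, 71.1, 92.4 and 74.7 under miR-485-3p, and 55.2 to 80.8 in the control. Its mimic groups were clearly apart, with a log2 difference of -1.44 ± 0.13 (adjusted p = 2.93e-09).

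The 5 genes with only the miR-380-3p heptamer and the smallest p among those lower under miR-380-3p were SH3BGRL2, DNAJA2, SUMO2, GNE and CLGN. SH3BGRL2, a small thioredoxin-fold protein, averaged 19.8 ± 1.89 CPM under miR-380-3p, against 51.3 ± 4.97 under miR-485-3p and 37.2 ± 2.25 in the control (SD, n = 4 each). DNAJA2, a co-chaperone of HSP70, averaged 54.5 ± 4.11 CPM under miR-380-3p, against 108 ± 11.2 under miR-485-3p and 98.5 ± 2.36 in the control. SUMO2, a ubiquitin-like modifier, averaged 206 ± 26.3 CPM under miR-380-3p, against 450 ± 22.6 under miR-485-3p and 421 ± 19.4 in the control. In these 3 genes no miR-380-3p library reached the lowest miR-485-3p library. GNE, the enzyme that starts sialic acid synthesis, averaged 29.2 ± 1.08 CPM under miR-380-3p, against 59.3 ± 6.41 under miR-485-3p and 42.8 ± 2.82 in the control. CLGN, calmegin, a chaperone of the endoplasmic reticulum, averaged 5.39 ± 0.664 CPM under miR-380-3p, against 16.4 ± 2.16 under miR-485-3p and 13.3 ± 0.837 in the control. The log2 differences of the 5 genes ran from -1.61 (CLGN) to -0.98 (DNAJA2), and the largest of their adjusted p-values was 6.28e-10.

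Other genes among the 10 lowest under miR-380-3p with its heptamer were MIGA1 and PCDH19. MIGA1, listed in the table under its older symbol FAM73A and involved in mitochondrial fusion, differed by -1.65 ± 0.18 on the log2 scale. PCDH19, a protocadherin of neurons with 2 miR-380-3p heptamers and 1 of miR-485-3p, had 31.7, 24.7, 17.4 and 18.7 CPM under miR-380-3p, against 70.2, 57.6, 74.7 and 85.0 under miR-485-3p, and 57.7 to 75.8 in the control. Despite its miR-485-3p heptamer, the log2 change of PCDH19 under miR-485-3p against the control was 0.05 ± 0.14 (adjusted p = 0.843).

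The genes with only the miR-485-3p heptamer and the smallest p were low under miR-485-3p relative to both other groups. ALDH18A1, the enzyme that starts proline synthesis from glutamate, had 158, 173, 163 and 161 CPM under miR-380-3p, against 53.0, 52.7, 50.02 and 62.1 under miR-485-3p, and 141 to 155 in the control. The mimic groups were far apart, and the miR-380-3p libraries lay just above the control ones. Its log2 difference was 1.59 ± 0.06 (adjusted p = 5.07e-16), and the change under miR-380-3p against the control was not called (0.12 ± 0.06, adjusted p = 0.209). MYCBP, a protein that binds MYC, had 34.0, 33.6, 30.5 and 29.8 CPM under miR-380-3p, against 6.18, 6.66, 4.82 and 8.60 under miR-485-3p, and 26.2 to 32.6 in the control. That is a log2 difference of 2.29 ± 0.12 (adjusted p = 1.86e-13), with the miR-380-3p libraries within or just above the control range.

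In TSPAN3, WLS and PGRMC1 the mimics moved the message to opposite sides of the control. TSPAN3, a tetraspanin membrane protein, had 184, 202, 207 and 210 CPM under miR-380-3p, against 76.0, 79.5, 76.7 and 76.2 under miR-485-3p, and 151 to 168 in the control. Its log2 change against the control was 0.35 ± 0.05 under miR-380-3p (adjusted p = 6.5e-05) and -1.04 ± 0.05 under miR-485-3p (adjusted p = 2.97e-13). WLS, which carries Wnt ligands to the cell surface, averaged 88.3 ± 4.57 CPM under miR-380-3p, against 31.7 ± 1.90 under miR-485-3p and 67.7 ± 5.94 in the control. PGRMC1, a heme-binding membrane protein, averaged 71.0 ± 3.74 CPM under miR-380-3p, against 32.9 ± 2.78 under miR-485-3p and 61.2 ± 2.26 in the control, and its rise under miR-380-3p was no longer called in 7 of 17 alternative settings. AP3S1 and TTC1, an adaptor subunit of vesicle sorting and a tetratricopeptide protein, were likewise above the control under miR-380-3p and below it under miR-485-3p. Their direct log2 differences were 1.64 ± 0.08 and 1.23 ± 0.07, and they held neither heptamer in the annotated UTR. All the genes of this paragraph met the rule for genes called in opposite directions against the control, so that pattern is part of how they were chosen.

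Genes with both heptamers did not respond alike. NRAS, a RAS GTPase and oncogene with 2 heptamers of each kind, had 192, 157, 159 and 166 CPM under miR-380-3p, against 46.9, 43.4, 41.3 and 72.3 under miR-485-3p, and 209 to 239 in the control. Every miR-380-3p library was above every miR-485-3p library and below every control library. The log2 difference was 1.73 ± 0.13 (adjusted p = 5.85e-11). Against the control the change was -0.42 ± 0.12 under miR-380-3p, called at an adjusted p of 0.02 but lost in 5 of 17 settings, and -2.15 ± 0.13 under miR-485-3p (adjusted p = 2.18e-12). In NRAS both miR-485-3p heptamers are followed by A, and 1 of the 2 miR-380-3p heptamers is.

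RAB21, a GTPase of early endosomes, also has 2 heptamers of each kind. As in NRAS, both of its miR-485-3p heptamers and 1 of its miR-380-3p heptamers are followed by A, but RAB21 went the other way. It had 21.0, 22.1, 14.3 and 15.0 CPM under miR-380-3p, against 46.0, 45.0, 59.5 and 57.3 under miR-485-3p, and 51.5 to 59.5 in the control. Its log2 difference was -1.53 ± 0.12 (adjusted p = 2.9e-10), and the change under miR-485-3p against the control was -0.12 ± 0.11 (adjusted p = 0.503). RHOQ, a small GTPase with 1 heptamer of each kind, had 44.8, 40.5, 41.1 and 48.7 CPM under miR-380-3p, against 11.3, 10.6, 9.18 and 14.0 under miR-485-3p, and 50.8 to 55.2 in the control. This is a log2 difference of 1.97 ± 0.11 (adjusted p = 2.71e-13).

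TMEM30A, the partner subunit of phospholipid flippases, was low under both mimics. It had 31.1, 20.7, 18.3 and 22.9 CPM under miR-380-3p, against 21.9, 19.2, 27.7 and 37.0 under miR-485-3p, and 65.3 to 80.1 in the control. The mimic groups overlapped, with a log2 difference of -0.19 ± 0.16 (adjusted p = 0.383), and each was below all control libraries. VMA21, an assembly factor of the vacuolar proton pump, averaged 36.0 ± 9.06 CPM under miR-380-3p, against 41.0 ± 5.09 under miR-485-3p and 74.2 ± 4.32 in the control, with a direct log2 difference of -0.19 ± 0.12 (adjusted p = 0.244). SH3TC2, a protein of endosomal recycling, averaged 0.753 ± 0.215 CPM under miR-380-3p, against 0.611 ± 0.0880 under miR-485-3p and 2.45 ± 0.710 in the control. TMED10, a cargo receptor of the early secretory pathway, averaged 84.2 ± 14.8 CPM under miR-380-3p, against 70.04 ± 5.53 under miR-485-3p and 142 ± 8.74 in the control. Its log2 difference of 0.26 ± 0.09 (adjusted p = 0.0351) missed the threshold in 8 alternative settings. These 4 genes were named because both mimics lowered them against the shared control libraries, so their common direction is part of how they were chosen.

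**Figure D3:**
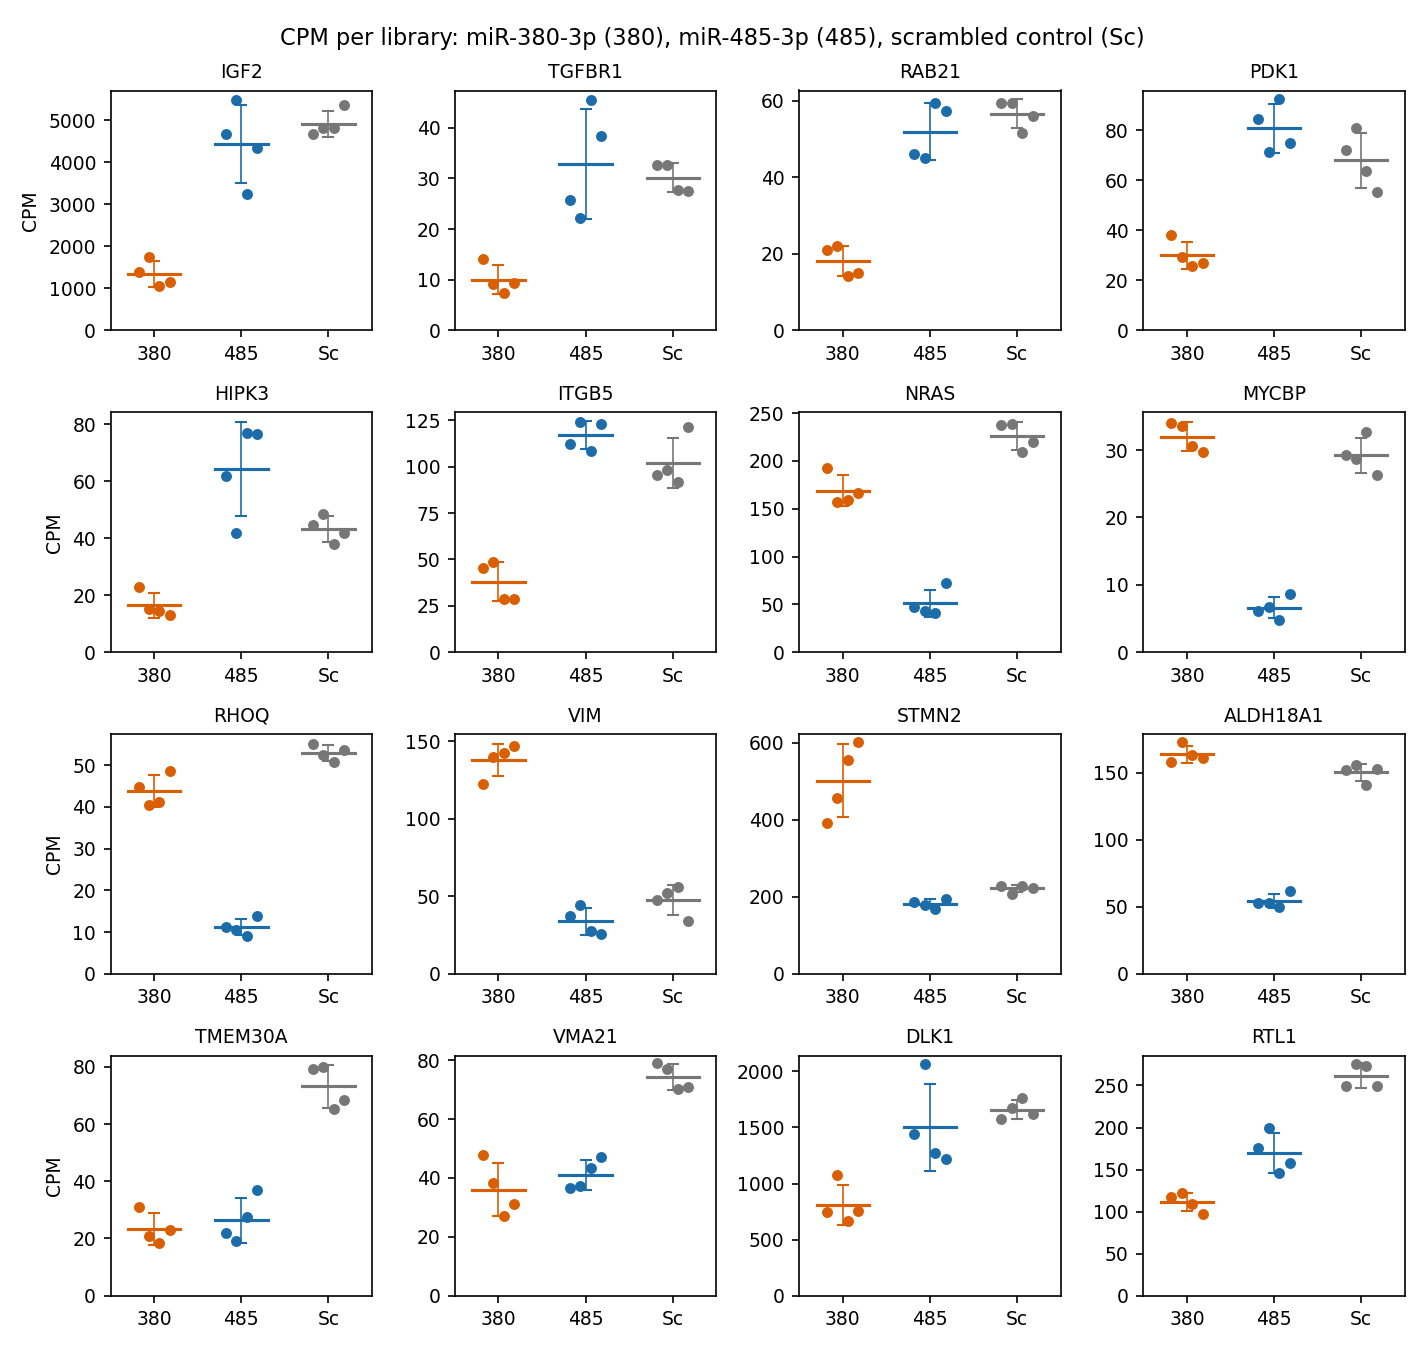
CPM of 16 genes in each library (points), with the mean (line) and SD (error bar) of the 4 libraries under miR-380-3p (left), under miR-485-3p (middle) and in the scrambled control (right, Sc), on axes from 0. IGF2 and TGFBR1 are low under miR-380-3p, MYCBP and ALDH18A1 under miR-485-3p, and TMEM30A and VMA21 under both.

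Some of the largest differences were in genes whose annotated UTR has no heptamer of the mimic under which they were low. ACTL8, an actin-like protein, had 4.82, 4.96, 3.99 and 3.15 CPM under miR-380-3p, against 27.4, 25.3, 27.5 and 20.0 under miR-485-3p, and 4.41 to 5.40 in the control. Here miR-380-3p left the gene near the control and miR-485-3p raised it, with a log2 difference of -2.58 ± 0.18 (adjusted p = 3.53e-11). CRH, corticotropin-releasing hormone, had 5.15, 6.41, 3.05 and 2.74 CPM under miR-380-3p, against 22.7, 34.7, 18.2 and 10.5 under miR-485-3p, and 6.05 to 12.2 in the control. The log2 difference of CRH was -2.33 ± 0.33 (adjusted p = 4.87e-06), and its miR-485-3p libraries varied more than 3-fold. ITGB5, an integrin subunit, averaged 37.9 ± 10.5 CPM under miR-380-3p, against 117 ± 7.54 under miR-485-3p and 102 ± 13.5 in the control. RHBG, an ammonium transporter, averaged 5.44 ± 0.662 CPM under miR-380-3p, against 16.9 ± 1.84 under miR-485-3p and 13.2 ± 0.898 in the control.

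Among the genes named by size, which all had a mean level of at least 2 in log2 CPM, the largest positive difference was that of ADCYAP1, which encodes the neuropeptide PACAP. It had 7.27, 8.38, 11.9 and 10.4 CPM under miR-380-3p, against 1.82, 1.37, 1.92 and 2.07 under miR-485-3p, and 1.73 to 2.61 in the control. ADCYAP1 has 2 miR-485-3p heptamers, yet its change under miR-485-3p against the control was -0.23 ± 0.22 (adjusted p = 0.495), and the direct log2 difference of 2.39 ± 0.20 (adjusted p = 4.8e-10) came with a rise under miR-380-3p. SCN9A, a voltage-gated sodium channel, had 13.9, 8.67, 15.0 and 14.2 CPM under miR-380-3p, against 3.71, 1.73, 2.09 and 4.07 under miR-485-3p, and 4.596 to 6.37 in the control. SCN9A was above the control under miR-380-3p although it carries 2 miR-380-3p heptamers. DRGX, a homeodomain protein of sensory neurons, averaged 12.6 CPM under miR-380-3p, against 3.13 under miR-485-3p and 6.23 in the control, the mimics again on either side of the control.

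VAMP7, NANOS1 and RALGPS2 complete the 10 highest under miR-380-3p. VAMP7, a SNARE protein of lysosomal fusion, averaged 13.2 ± 0.929 CPM under miR-380-3p, against 3.51 ± 0.749 under miR-485-3p and 13.6 ± 0.662 in the control. It lies in the pseudoautosomal region, and the table lists its X and Y copies with equal counts, so it takes 2 of the 10 places. NANOS1, an RNA-binding regulator of translation, averaged 11.5 ± 1.13 CPM under miR-380-3p, against 3.24 ± 0.621 under miR-485-3p and 11.9 ± 1.35 in the control. Both were near the control under miR-380-3p, although each has 1 miR-380-3p heptamer and none of miR-485-3p. RALGPS2, an exchange factor for RAL GTPases, averaged 7.81 ± 0.802 CPM under miR-380-3p, against 2.16 ± 0.255 under miR-485-3p and 5.09 ± 1.25 in the control.

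The transcripts of the 14q32 region itself were compared because both microRNAs come from it. Of 5 tested members, 0 were called higher and 2 lower under miR-380-3p than under miR-485-3p. Over all genes 14.6% were called higher and 14.4% lower, so 0 higher among 5 members says little about the region. The list's median log2 difference was -0.52, against -0.02 over all genes. The count of higher members was also 0 at an unadjusted p under 0.05 and by DESeq2. Against the control, 3 members were called lower under miR-380-3p and 1 under miR-485-3p, where 5.25% and 10.6% of all genes were. DLK1, a non-canonical Notch ligand of progenitor cells, had 750, 1074, 662 and 752 CPM under miR-380-3p, against 1441, 2067, 1269 and 1221 under miR-485-3p, and 1573 to 1767 in the control. The groups did not overlap, and the log2 difference was -0.89 ± 0.18 (adjusted p = 0.000383). Against the control DLK1 changed by -1.04 ± 0.18 under miR-380-3p (adjusted p = 0.000243) and by -0.15 ± 0.18 under miR-485-3p (adjusted p = 0.621). RTL1, a retrotransposon-derived gene, had 118, 122, 109 and 97.5 CPM under miR-380-3p, against 176, 200, 146 and 157 under miR-485-3p, and 249 to 276 in the control. Its log2 difference was -0.61 ± 0.14 (adjusted p = 0.00192), and the change against the control was called under both mimics, at -1.23 ± 0.14 under miR-380-3p (adjusted p = 1.19e-06) and -0.63 ± 0.14 under miR-485-3p (adjusted p = 0.00213). RTL1 is overlapped by an antisense transcript, and whether the counting used strand is not given in the sources used here. MEG3 was at most 0.498 CPM under miR-380-3p, at most 0.537 under miR-485-3p and at most 1.29 in the control. On these few counts its log2 change against the control was -1.66 ± 0.44 under miR-380-3p (adjusted p = 0.0129). Under miR-485-3p it was -1.14 ± 0.41 (adjusted p = 0.0505). The first call was lost in 1 of 15 settings, and the second change passed the threshold in 4. MEG3 (adjusted p = 0.461), DIO3 (adjusted p = 0.7) and DIO3OS were not called between the mimics, and neither DLK1 nor RTL1 has a heptamer of either microRNA in its annotated UTR.

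MYCN, the amplified driver of Kelly cells, averaged 4050 ± 360 CPM under miR-380-3p, against 4352 ± 406 under miR-485-3p and 5053 ± 206 in the control. Its log2 difference between the mimics was -0.10 ± 0.08 (adjusted p = 0.367). Against the control MYCN changed by -0.32 ± 0.08 under miR-380-3p, which was called (adjusted p = 0.0104). Under miR-485-3p it changed by -0.22 ± 0.08 (adjusted p = 0.061), which passed the threshold in 7 of 17 settings. ALK, a receptor kinase often mutated in neuroblastoma, averaged 68.1 ± 4.47 CPM under miR-380-3p, against 74.0 ± 10.1 under miR-485-3p and 81.0 ± 9.80 in the control, a log2 difference of -0.12 ± 0.10 (adjusted p = 0.397).

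Over all genes tested 14.6% were called higher and 14.4% lower, with a median of -0.02. The direct counts of the lists below stand against these shares. Their counts against the control stand against 5.6% higher and 5.25% lower under miR-380-3p, and 10.5% and 10.6% under miR-485-3p. In RAS and MAP kinase signalling, 3 of 21 tested genes were called higher and 4 lower under miR-380-3p, with a median of -0.12, counts near the shares over all genes. The higher ones were NRAS, MAP2K1 and SPRY2. MAP2K1, which encodes MEK1 and has 1 miR-485-3p heptamer, had 41.4, 39.2, 33.6 and 35.1 CPM under miR-380-3p, against 18.7, 18.5, 18.4 and 20.0 under miR-485-3p, and 40.7 to 46.7 in the control. The lower ones under miR-380-3p included the inhibitors SPRY4 and SPRED1 and the adaptor SHC1. SPRY4 averaged 12.8 ± 2.09 CPM under miR-380-3p, against 32.1 ± 4.32 under miR-485-3p and 29.0 ± 4.43 in the control, a log2 difference of -1.33 ± 0.15 (adjusted p = 1.47e-07). SPRED1 averaged 20.2 ± 4.24 CPM under miR-380-3p, against 34.7 ± 8.28 under miR-485-3p and 29.4 ± 2.74 in the control. HRAS, another RAS gene, had a log2 difference of -0.20 ± 0.13 (adjusted p = 0.257). The number called lower was 7 without miR-380-3p replicate 2 and 9 with a GC slope covariate.

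In the insulin-like growth factor axis, 3 of 16 tested genes were called higher and 4 lower under miR-380-3p (median -0.09). The ligand IGF2, the receptor IGF1R, the kinase AKT1 and the noncoding RNA H19, the imprinted neighbour of IGF2, were lower. IGF1R averaged 59.7 ± 5.68 CPM under miR-380-3p, against 74.0 ± 7.37 under miR-485-3p and 81.9 ± 6.80 in the control, a log2 difference of -0.31 ± 0.09 (adjusted p = 0.0121). H19 was scarce, at 0.146 to 0.422 CPM under miR-380-3p and 0.537 to 2.46 under miR-485-3p, so that its log2 difference of -2.16 ± 0.50 (adjusted p = 0.00158) rests on few counts. Higher under miR-380-3p were, among others, the binding proteins IGFBP3 and IGFBP5, which hold the ligand outside the cell. IGFBP5 had 32.6, 33.9, 43.2 and 38.5 CPM under miR-380-3p, against 17.96, 17.6, 16.4 and 14.5 under miR-485-3p, and 16.6 to 24.5 in the control. IGFBP5 was above the control under miR-380-3p (log2 change 0.81 ± 0.10, adjusted p = 5.73e-06), although it carries 1 miR-380-3p heptamer and none of miR-485-3p. IGFBP3 averaged 5.27 ± 1.16 CPM under miR-380-3p, against 1.73 ± 0.719 under miR-485-3p and 1.71 ± 0.425 in the control, a log2 difference of 1.61 ± 0.27 (adjusted p = 5.56e-05). Without miR-380-3p replicate 4, 2 genes of the axis were called lower.

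Of 25 tested genes of neuronal differentiation, 11 were called higher under miR-380-3p, 5 lower and 9 not called, with a median of 0.03. The higher ones included STMN2, DCX, SCG2, GAP43, NEFL, CPLX2, MAPT, CNTN1, INA and NEFM. STMN2, a microtubule regulator of growing neurites, had 392, 457, 555 and 602 CPM under miR-380-3p, against 187, 179, 169 and 195 under miR-485-3p, and 208 to 229 in the control. The log2 difference of STMN2 was 1.46 ± 0.11 (adjusted p = 6.45e-11), with all miR-380-3p libraries above every other library. STMN2 carries 1 miR-485-3p heptamer. Its change under miR-485-3p against the control was -0.28 ± 0.11 (adjusted p = 0.0547), which passed the threshold in 9 of 17 settings. GAP43, a growth cone protein, averaged 330 ± 34.5 CPM under miR-380-3p, against 176 ± 19.2 under miR-485-3p and 242 ± 16.2 in the control. DCX, doublecortin, averaged 31.6 ± 4.01 CPM under miR-380-3p, against 13.9 ± 3.17 under miR-485-3p and 19.7 ± 0.171 in the control. NEFL, a neurofilament subunit, and SCG2, a granin of secretory vesicles, differed by 0.69 ± 0.06 and 1.11 ± 0.11. The lower ones included the synaptic genes SNAP25 and SYP, the RNA-binding protein ELAVL4 and the adhesion molecule NCAM1. SNAP25 averaged 42.7 ± 1.51 CPM under miR-380-3p, against 65.2 ± 4.98 under miR-485-3p and 56.5 ± 5.08 in the control. Against the control, 9 members were higher and 1 lower under miR-380-3p, and 5 were higher and 5 lower under miR-485-3p.

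The adrenergic identity genes, the transcription factors and catecholamine enzymes typical of this line, were called higher under miR-380-3p in 9 of 25 cases and lower in 4, with a median of 0.07. HAND2, a core transcription factor, averaged 764 ± 110 CPM under miR-380-3p, against 481 ± 59.8 under miR-485-3p and 618 ± 36.9 in the control. ISL1, TBX2, TFAP2B, CHGA, SOX11, EYA1 and SIX3 were also higher, and SLC18A2, DDC and KLF13 were among the lower ones. SLC18A2, the vesicular monoamine transporter, averaged 120 ± 29.2 CPM under miR-380-3p, against 240 ± 24.8 under miR-485-3p and 214 ± 19.3 in the control. The enzymes TH and DBH differed by -0.36 ± 0.30 (adjusted p = 0.384) and -0.03 ± 0.13 (adjusted p = 0.894). Without miR-380-3p replicate 4 the number of higher members was 5. Against the control, 1 member was called higher and 7 lower under miR-380-3p, and 9 were called lower under miR-485-3p. Over all genes the shares called lower against the control were 5.25% and 10.6%, in that order. CHGA, a secretory granule protein, averaged 2284 ± 326 CPM under miR-380-3p, against 1855 ± 299 under miR-485-3p and 3310 ± 225 in the control.

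The mesenchymal genes, which mark the other cell state of neuroblastoma, were called higher under miR-380-3p in 6 of 14 tested members and lower in 1, CD44, with a median of 0.40. Against the control, 4 members were called higher and 3 lower under miR-380-3p (median 0.07). Under miR-485-3p 1 was higher and 6 were lower (median -0.38). VIM, the intermediate filament vimentin, had 123, 140, 142 and 147 CPM under miR-380-3p, against 37.7, 44.5, 27.5 and 25.7 under miR-485-3p, and 34.2 to 56.4 in the control. All miR-380-3p libraries were above all others, and the log2 difference was 2.03 ± 0.14 (adjusted p = 1.7e-11). ANXA2, annexin A2, had 56.2, 57.3, 66.0 and 63.7 CPM under miR-380-3p, against 16.1, 18.3, 14.2 and 20.5 under miR-485-3p, and 31.5 to 35.7 in the control. ANXA2 was thus above the control under miR-380-3p and below it under miR-485-3p, whose heptamer it carries once. PRRX1, a mesenchymal transcription factor, was scarce, at 0.760, 0.510, 0.935 and 1.17 CPM under miR-380-3p, against 0, 0, 0.174 and 0.154 under miR-485-3p, and 0.329 to 0.869 in the control. SNAI2, NOTCH2 and NOTCH3 were the other higher members, and of these NOTCH2 was below the control under both mimics. FN1, YAP1, TWIST1, FOSL2, BHLHE41, ID1 and MAML2 were not called, and the count of lower members was 0 without miR-485-3p replicate 3 and 2 without miR-380-3p replicate 2 or miR-485-3p replicate 2 or 5, with the replicate number as a block and with a GC slope covariate. Of the markers of other cell types, COL1A1 was at 10.4 to 13.2 CPM under miR-380-3p and 5.60 to 8.79 under miR-485-3p, VWF at 1.56 to 2.45 and 0.755 to 1.69, and KRT19 at 0.948 to 1.31 and 1.77 to 2.65, with DCN, SOX10 and PECAM1 at 0. The part of such cells in these values was not tested.

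In the Notch pathway, 7 of 21 tested genes were called higher and 4 lower under miR-380-3p (median -0.15). NOTCH2, a receptor with 1 miR-485-3p heptamer, had 0.507, 0.510, 0.685 and 0.699 CPM under miR-380-3p, against 0.260, 0.0913, 0.174 and 0.0768 under miR-485-3p, and 1.22 to 1.58 in the control. It was below the control under both mimics, further under miR-485-3p. The ligand JAG1, the target gene HES1, the receptor NOTCH3, the coactivator MAML3 and the gamma-secretase subunit NCSTN were also higher. RBPJ, the DNA-binding partner of the Notch receptors, was lower, at 109 ± 7.07 CPM under miR-380-3p, against 144 ± 17.4 under miR-485-3p and 118 ± 4.79 in the control. HEY1, MFNG and PSEN2 were lower too, and the count of higher members was 4 without miR-380-3p replicate 3 and 2 without miR-485-3p replicate 3.

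In the TGF-beta and BMP pathway, 5 of 28 tested genes were called higher and 4 lower under miR-380-3p, with a median of 0.01, which is near the 14.6% higher and 14.4% lower of all genes. Besides the receptor TGFBR1, the lower ones were the transducer SMAD5, the inhibitory SMAD6 and the ligand BMP7. SMAD5, with 2 miR-380-3p heptamers, averaged 47.8 ± 7.59 CPM under miR-380-3p, against 79.8 ± 16.5 under miR-485-3p and 93.1 ± 7.63 in the control. ID2, a target gene of BMP signals, had 264, 297, 251 and 285 CPM under miR-380-3p, against 170, 165, 144 and 141 under miR-485-3p, and 231 to 283 in the control. ID2 was therefore near the control under miR-380-3p and low under miR-485-3p, with a log2 difference of 0.82 ± 0.09 (adjusted p = 3.09e-08). SMAD3, SMAD4, TGFB2 and BMPR1B were also higher under miR-380-3p, but the count of higher members was 2 or 3 without miR-380-3p replicate 3 or 4 or miR-485-3p replicate 1 or 2, and with the replicate number as a block 7 members were lower.

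**Figure D4:**
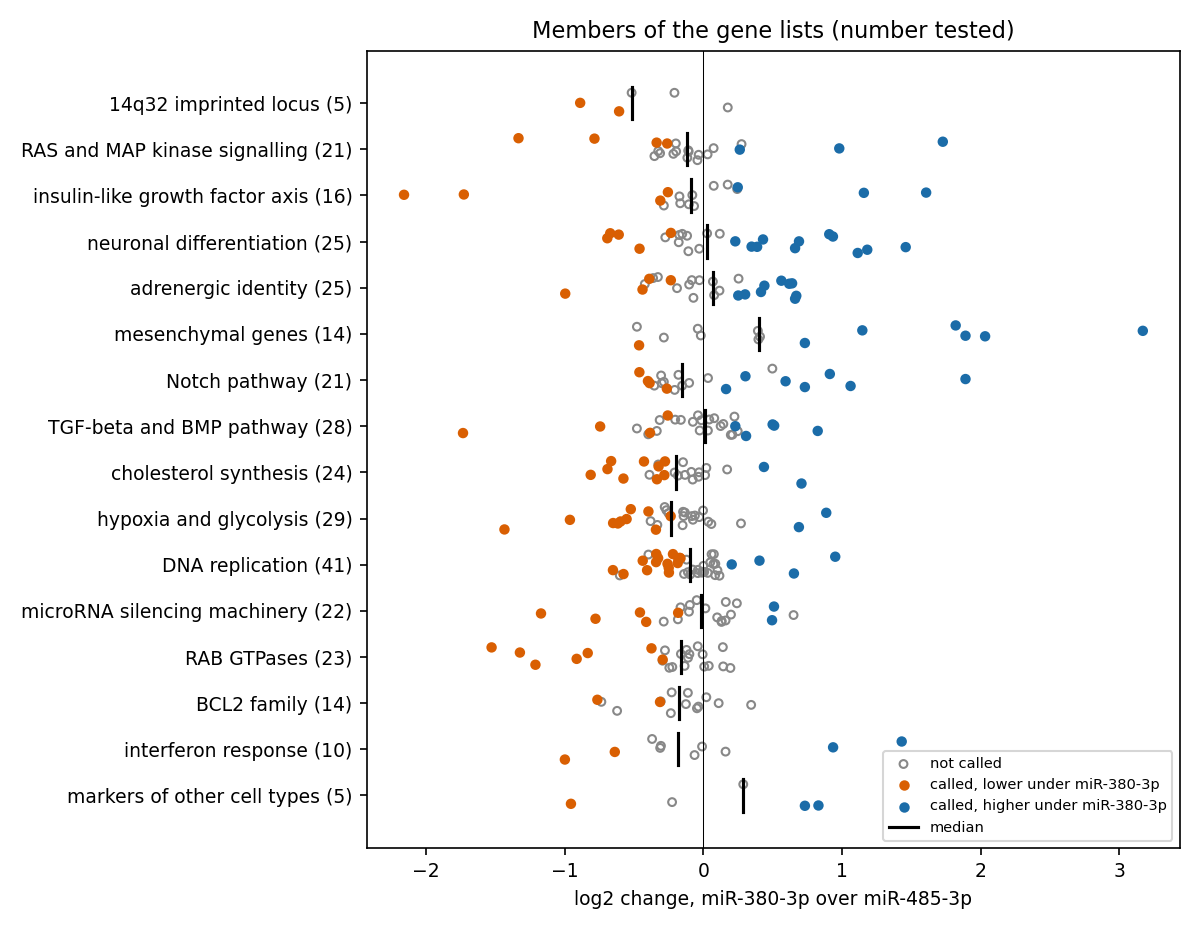
Log2 difference of miR-380-3p over miR-485-3p (horizontal axis) of each tested member of the 16 gene lists (number of tested members in parentheses), with members called in either direction filled and the list's median as a black bar. The mesenchymal genes have the highest median (0.40), and the lists of 14q32, RAB GTPase and BCL2 family genes, with 5, 23 and 14 tested members, have none called higher, where 14.6% of all genes were.

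Of 29 tested genes of hypoxia and glycolysis, 10 were called lower and 2 higher under miR-380-3p (median -0.24), against 14.4% lower and 14.6% higher over all genes. The lower ones were PDK1, HK2, PFKP, SLC2A1, VEGFA, BNIP3, PFKL, PGAM1, PFKM and MXI1. HK2, a hexokinase, had 84.9, 72.5, 73.5 and 65.7 CPM under miR-380-3p, against 148, 140, 157 and 133 under miR-485-3p, and 83.6 to 97.0 in the control. HK1, another hexokinase, went the other way, with 120, 129, 115 and 118 CPM under miR-380-3p, against 68.5, 69.5, 51.4 and 72.1 under miR-485-3p, and 130 to 141 in the control. The log2 differences were -0.96 ± 0.10 for HK2 (adjusted p = 1.32e-08) and 0.89 ± 0.08 for HK1 (adjusted p = 9.32e-10). VEGFA, an angiogenic growth factor, averaged 76.0 ± 4.27 CPM under miR-380-3p, against 115 ± 8.28 under miR-485-3p and 110 ± 7.55 in the control.

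Of 24 tested genes of cholesterol synthesis, 9 were called lower and 2 higher under miR-380-3p (median -0.20), and against the control 2 were higher and 1 lower under miR-380-3p while 13 were higher under miR-485-3p. DHCR7, which makes cholesterol in its last step, averaged 58.7 ± 8.24 CPM under miR-380-3p, against 94.9 ± 17.8 under miR-485-3p and 58.7 ± 4.94 in the control. MVD, of the mevalonate pathway, averaged 29.6 ± 6.73 CPM under miR-380-3p, against 52.2 ± 8.40 under miR-485-3p and 35.0 ± 5.45 in the control. HSD17B7, ACAT2, MVK, NSDHL, EBP and FDPS were lower as well. The 2 higher were HMGCS1, at 276 ± 37.1 CPM under miR-380-3p and 204 ± 32.3 under miR-485-3p, and INSIG1, a sterol sensor that holds back the pathway, at 84.5 ± 14.2 and 51.7 ± 11.6 in the same order.

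Of 41 tested genes of DNA replication, 15 were called lower and 4 higher under miR-380-3p (median -0.10). The lower differences were small: the 15 included MCM2, MCM5, MCM7, CDC6 and RRM1, and the widest was E2F2, a cell cycle transcription factor, at -0.65 ± 0.09 (adjusted p = 5.56e-06). CCNE1, cyclin E1, averaged 25.8 ± 2.60 CPM under miR-380-3p, against 38.5 ± 4.11 under miR-485-3p and 23.6 ± 2.32 in the control. RRM2, a ribonucleotide reductase subunit, averaged 428 ± 23.7 CPM under miR-380-3p, against 580 ± 44.8 under miR-485-3p and 398 ± 12.9 in the control. TYMS, thymidylate synthase, ran against them, with 239, 253, 246 and 250 CPM under miR-380-3p, against 129, 124, 123 and 135 under miR-485-3p, and 216 to 259 in the control. CHAF1A, a histone chaperone subunit, was also higher, by 0.65 ± 0.07 (adjusted p = 3.62e-08). Against the control, 2 members were higher and 1 lower under miR-380-3p, and 14 were higher and 3 lower under miR-485-3p. Without miR-485-3p replicate 3 the direct comparison called 9 members lower.

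In the microRNA silencing machinery, 2 of 22 tested genes were called higher and 5 lower under miR-380-3p (median -0.02), and the 3 TNRC6 scaffold genes, whose proteins join Argonaute to the deadenylases, divided. TNRC6C, with 2 miR-380-3p heptamers, had 35.2, 37.7, 37.6 and 33.9 CPM under miR-380-3p, against 79.5, 67.9, 84.5 and 93.0 under miR-485-3p, and 43.4 to 61.4 in the control. TNRC6A, with 2 miR-485-3p heptamers, had 174, 168, 208 and 185 CPM under miR-380-3p, against 130, 115, 130 and 141 under miR-485-3p, and 147 to 166 in the control. TNRC6B, with 2 miR-380-3p heptamers and 1 of miR-485-3p, had 89.0, 78.9, 93.4 and 73.2 CPM under miR-380-3p, against 133, 122, 136 and 184 under miR-485-3p, and 83.7 to 124 in the control. In none of the 3 did the mimic groups overlap, and the log2 differences were -1.17 ± 0.10 for TNRC6C, 0.51 ± 0.07 for TNRC6A and -0.78 ± 0.14 for TNRC6B, with adjusted p-values of at most 7.99e-05. CNOT7, a deadenylase, was higher, and AGO4, XPO5 and LIN28B were lower. AGO1, AGO2, AGO3, DICER1 and DROSHA were not called. Without miR-485-3p replicate 3 or 5, 3 members were lower, and with the replicate number as a block 7 were higher.

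Among RAB GTPases, the switches of vesicle traffic, 0 of 23 tested genes were called higher and 7 lower under miR-380-3p (median -0.16). RAB23, with 2 miR-380-3p heptamers, had 11.7, 12.7, 9.78 and 11.7 CPM under miR-380-3p, against 27.5, 24.0, 33.1 and 30.0 under miR-485-3p, and 22.8 to 25.3 in the control. RAB22A, with 1, averaged 69.3 ± 4.99 CPM under miR-380-3p, against 124 ± 15.7 under miR-485-3p and 84.3 ± 2.75 in the control. RAB27A, of granule secretion, averaged 4.33 ± 0.482 CPM under miR-380-3p, against 9.99 ± 2.65 under miR-485-3p and 5.98 ± 0.841 in the control. RAB21, RAB3A, RAB2A and RAB1A were the others, and against the control 1 member was higher and 3 lower under miR-380-3p and 6 were higher and 1 lower under miR-485-3p. In the direct comparison 1 member was higher at an unadjusted p under 0.05 and 0 by DESeq2, and with a GC slope covariate 11 were called lower and 1 higher.

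In the BCL2 family, 0 of 14 tested genes were called higher and 2 lower under miR-380-3p (median -0.18), the count of lower members at about the 14.4% of all genes. BCL2, an inhibitor of apoptosis with 2 miR-380-3p heptamers, had 23.2, 16.8, 17.9 and 20.0 CPM under miR-380-3p, against 31.5, 25.5, 38.2 and 36.8 under miR-485-3p, and 35.6 to 42.1 in the control. The groups did not overlap, with a log2 difference of -0.77 ± 0.13 (adjusted p = 7.34e-05). BID, a pro-apoptotic member, differed by -0.31 ± 0.10 (adjusted p = 0.0226), a call lost in 3 settings, and BAD, another, by -0.74 ± 0.28 (adjusted p = 0.0522), which passed the threshold in 9. The inhibitors MCL1 and BCL2L1 had log2 differences of 0.02 ± 0.07 and -0.11 ± 0.09 and were not called. At an unadjusted p under 0.05 1 member was higher, by DESeq2 0, and the count of lower members ranged from 1, without miR-380-3p replicate 1 or miR-485-3p replicate 2, to 6, with the replicate number as a block.

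The interferon response, which double-stranded RNA can set off, had 10 tested members, of which 2 were called higher and 2 lower under miR-380-3p. IFIT1 was at 1.17 to 1.56 CPM under miR-380-3p, 0.407 to 0.614 under miR-485-3p and 1.23 to 1.52 in the control, and the RNA sensor RIGI, listed as DDX58, was also higher under miR-380-3p. OAS1 was at 0.997 to 1.75 CPM under miR-380-3p, 2.47 to 2.99 under miR-485-3p and 2.82 to 3.39 in the control, and OAS3 was lower too. Against the control, 2 members were called lower under miR-380-3p and 1 under miR-485-3p, where 5.25% and 10.6% of all genes were.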

How the data were processed

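RNA sequencing measured poly(A) RNA of Kelly cells in 28 libraries, 7 groups of 4, of which the 8 libraries of the 2 mimics and the 4 of the Scrambled control enter the values printed. Groups and replicate numbers come from the labels. Reads were aligned with STAR to hg19, per the submitters' processing notes, which give no version. The counting tool, the annotation, any use of strand and the meaning of the filtering are not given in the sources used here. Expected counts per gene are the deposited unit (30887 genes, 951 of them at 0 throughout, 10.2% of values not whole), as the authors made them. No column was left without a sample (0).

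Expected counts were rounded, filtered (filterByExpr, 15058 genes kept), scaled by TMM (factors 0.948 to 1.03) and tested with the quasi-likelihood test of edgeR 4.0.16 on all 28 libraries (21 residual degrees of freedom, coefficient of variation 12.2%), two-sided, with Benjamini-Hochberg adjustment over the genes tested. The threshold for a call was an adjusted p of 0.05. The spread between libraries, not counting error, sets the precision, and no 2 libraries of a group were copies (chi-square per degree of freedom at least 2.76). CPM are counts scaled to a fixed effective library size. In bulk RNA, fewer cells of a type and less RNA per cell cannot be told apart. Heptamers were searched in the longest 3′ UTR (GENCODE v29), and coordinates are GRCh38, not the authors' hg19. Both mature sequences and all target sites were read from reference tables. Gene lists are described by counts and medians, with no test of the list.

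The comparison, the lists and the naming rule were chosen with earlier results of these data known. The rule names the 10 largest differences in each direction (mean log2 CPM of at least 2, no overlap), the 5 smallest p with each heptamer, the 5 genes changed in opposite directions against the control, 4 with both heptamers lowered by both, up to 3 of each list, and MYCN, ALK, NRAS, IGF2, TGFBR1, BCL2, VIM and the 14q32 transcripts. Other list members are named to complete a list's count or were chosen after their values were seen. Some genes that met the rule or belong to a list are not reported here. MEG8, whose symbol points to more than 1 identifier, is not analysed here. MEG9 was too low to test. Alternatives were DESeq2 1.42.0, limma 3.58.1 (voom), other scalings and filters, only the 8 libraries compared, a replicate block, a GC slope covariate (for lists and heptamer classes chosen after seeing the data), other site definitions and leaving out each library.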

Additional observations from a re-analysis of the deposited data

Results flagged for a closer look

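Of 258 groups of 4 values screened (the named genes and 3 library measures in 3 groups of libraries), 6 had 1 library apart from the other 3 by Dixon's criterion at 95%, which chance meets in about 1 of 20 groups. SCN9A was at 8.67 CPM in miR-380-3p replicate 2, against 13.9 to 15.0 in the other miR-380-3p libraries. RAB22A was at 61.96 CPM in miR-380-3p replicate 2, against 71.2 to 73.0 in the others. MAP2K1 was at 19.96 CPM in miR-485-3p replicate 5, against 18.4 to 18.7, SPRY4 at 25.7 CPM in miR-485-3p replicate 3, against 33.7 to 35.0, and HSD17B7 at 15.6 CPM in miR-485-3p replicate 3, against 10.8 to 11.5. TNRC6B was at 124 CPM in Scrambled control replicate 5, against 83.7 to 89.0 in the other control libraries. The direct difference of the 5 genes with a mimic library apart stayed past the threshold without that library.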

How the results depend on the processing

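No called change of a named gene changed sign in the settings tried, while some that were not called did, the direct difference of TMEM30A among them. The balance of calls moved: the direct comparison gave 2200 higher and 2167 lower, against 1930 and 2419 with library-size scaling and 2748 and 3088 with the GC slope covariate, and miR-380-3p against the control 843 and 791, against 659 and 827 with library-size scaling. The direct comparison called 4367 genes, and 3617 to 5836 under the other tools, scalings, filters and covariates tried on all libraries, but 2571 on the 8 libraries compared alone. For miR-380-3p against the control the count of 1634 was 2778 with the GC slope covariate, and for miR-485-3p against the control the count of 3176 was 4878 with that covariate and 2000 on the 8 libraries compared alone. Leaving out each library in turn gave 3496 to 4542 calls directly, 1056 to 1755 for miR-380-3p against the control (1056 without miR-380-3p replicate 3) and 2240 to 3395 for miR-485-3p against the control. The causes were not tested. The share of genes with only the miR-380-3p heptamer called lower was 19.7% to 32.1% without 1 library, 38.5% with the GC slope covariate and 20.1% for heptamers in coding sequence. For genes with only the miR-485-3p heptamer called higher it was 31.7% to 40.4%, 42.2% and 26.9% in the same order. The shares of genes with neither heptamer are not given for these settings, so these values have no matching baseline. With the GC slope covariate the calls over all genes rose as well, to 2748 higher and 3088 lower. In the direct comparison, 77 of 82 named genes tested kept their side of the threshold in every setting that tested them (70 were tested in all 17), the exceptions being BAD, TMED10, BID, VWF and VMA21. Against the control, 32 of 164 named gene results crossed the threshold in at least 1 setting.

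Same-numbered libraries of the mimics deviated from their group means with r of -0.0620, 0.387 and 0.0704 for numbers 1, 2 and 3. The value for number 2 was the highest of any pair across the mimics, the next being 0.236. Both replicates 2 also had the highest GC slope of their group, 1.51 and 3.04. Whether they share a source was not tested, and the numbers were not read as pairs in the main fit. With a replicate block, 5021 genes were called directly, 1746 for miR-380-3p against the control and 3500 for miR-485-3p against the control.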
